A study of Mus musculus with 7 samples.

Results

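Mouse embryonic fibroblasts (MEF), the connective-tissue cells that grow out of dissociated embryos, were compared between a Nanog knockout (KO) and the wild type (WT). The pair consists of the 1 array labelled Nanog KO MEF and the 1 array labelled WT MEF, 2 of the 7 arrays of the series, and was read across 21065 autosomal genes of the 22180 genes that the arrays name with 1 symbol. The other 5 arrays hold pluripotent cells: 1 sample of embryonic stem cells (ESC) and 2 of induced pluripotent stem cells (iPSC) from the wild type, and 2 of Nanog KO iPSC. All 7 samples are labelled strain 129, and apart from the Nanog genotype the labels name no allele, transgene or agent for either MEF sample. They do not say how the KO fibroblasts were derived or selected, how many embryos or of which sex each sample came from, or in which of the 3 named media it grew. With 1 array on each side there was no replicate and no test, so genes are described as higher or lower by at least 2-fold (a log2 difference of at least 1 either way), KO minus WT.

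Nanog is a DNA-binding regulator with a homeodomain that helps to hold cells in the pluripotent state, active in the inner cell mass and in ESC and silent in fibroblasts. Fibroblasts build the extracellular matrix: they secrete fibrillar collagens and small leucine-rich proteoglycans, and exchange Wnt, insulin-like growth factor and other signals with the cells around them. A culture of MEF is a mixture, with fibroblasts from different body positions, contractile myofibroblasts and often macrophages, so in a bulk RNA sample fewer cells of a type and less RNA per cell cannot be told apart.

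Nanog was read first, since it is the targeted gene. Its log2 intensity was 12.73 in the ESC array, 12.84 and 12.76 in the WT iPSC arrays, and 7.50 and 7.44 in the KO iPSC arrays. In the fibroblasts it was 6.53 (WT) and 6.42 (KO). Background was set on each array from 1394 odorant and vomeronasal receptor genes, as their 95th percentile, which lay at 6.45 in WT MEF and 6.35 in KO MEF. Nanog was therefore close to background on both MEF arrays, and its level checks the KO label in iPSC but not in MEF. Among the 20 measured genes nearest to Nanog on chromosome 6, the median difference was -0.04, 1 was at least 2-fold higher in KO MEF and 0 were lower. The higher one was Mfap5, which encodes a microfibril protein of the matrix, at 9.77 in WT MEF and 11.33 in KO MEF.

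Both samples carried the markers of fibroblasts. Vimentin (Vim) was at 13.52 in WT and 13.50 in KO MEF, fibronectin (Fn1) at 13.49 and 13.61, and the collagen gene Col1a1 at 12.62 and 12.94. Of 23 measured genes of the pluripotency network 0 were 2-fold apart. Sox2 (5.68 and 5.65) lay under background, and Pou5f1 (7.15 and 7.27) lay above it. The largest gap in that list was in Klf4, which differentiated cells also express, at 9.79 and 10.70.

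Of the 21065 autosomal genes, 598 (2.84%) were at least 2-fold higher in KO MEF and 380 (1.8%) were at least 2-fold lower. The counts given for gene lists are to be read beside these shares. The median difference over all of them was -0.02 and the SD across genes 0.47. At 4-fold or more, 119 genes were higher and 34 lower. For scale, the same count in either direction was 978 genes (4.64%) for the MEF pair, 331 (1.57%) between the 2 WT iPSC arrays and 3 (0.0142%) between the 2 KO iPSC arrays. WT ESC set against either WT iPSC array gave 531 (2.52%) and 255 (1.21%). The MEF difference exceeded the gap between the WT iPSC arrays in 585 of the 598 higher genes and in 354 of the 380 lower ones. These genes were chosen for a MEF difference of at least 2-fold, so both counts follow largely from that choice. The WT iPSC arrays were themselves at least 2-fold apart in 34 of the 598 and 44 of the 380, beside 1.57% of all autosomal genes. The spread between separate MEF cultures of 1 genotype was not measured.

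**Figure D1:**
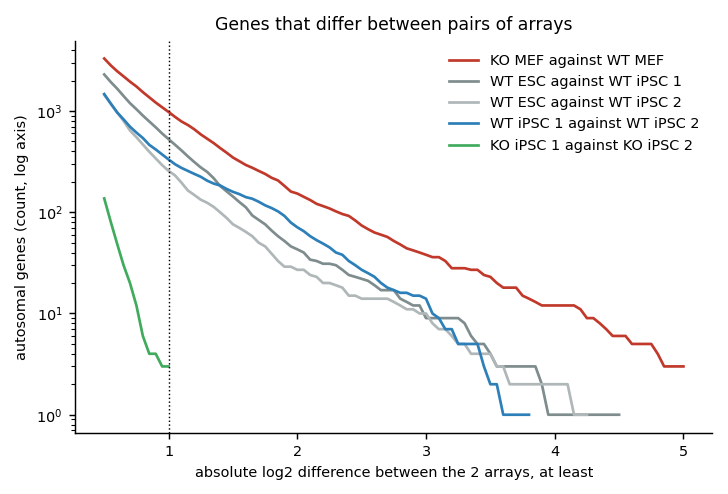
The horizontal axis is the absolute log2 difference between 2 arrays, shown up to 5, and the vertical log axis counts the autosomal genes at or above it, with 1 line per pair of arrays and a dotted line at 2-fold. At 2-fold the MEF pair reached 978 genes, against 531 and 255 for WT ESC with each WT iPSC array, 331 for the WT iPSC arrays and 3 for the KO iPSC arrays.

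Genes on the X and Y chromosomes lie outside these counts but bear on what the pair compares. The Y-linked genes Eif2s3y (5.05 in WT MEF, 9.21 in KO MEF) and Uty (4.86 and 8.78) were above background in KO MEF alone among the 2 MEF arrays. Xist, the RNA that coats the inactive X chromosome, was at 11.97 in WT and 9.15 in KO MEF. Hprt, an X-linked purine salvage enzyme, was at 9.90 in WT and 5.72 in KO MEF, at least 11.7-fold lower, and it was also under background in both KO iPSC arrays (4.32 and 4.83) against 10.98 and 10.95 in WT iPSC. The 2 MEF samples thus differ in more than their Nanog label, and the part of these differences in the autosomal genes was not tested.

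Several of the largest differences lay in genes of the extracellular matrix and its regulators. The gene with the largest difference, Lgr5, encodes a receptor for R-spondins that marks stem cells in several epithelia. Its level was 6.08 in WT MEF and 12.38 in KO MEF, at least 61.0-fold higher, and between 5.70 and 6.25 in the 5 pluripotent arrays. Its other probe set gave 5.64 and 9.18. On both probe sets KO MEF stood above WT MEF.

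Serpina3n, a secreted serine protease inhibitor, was at 5.85 in WT and 11.99 in KO MEF, at least 46.3-fold higher. Lumican (Lum), a leucine-rich proteoglycan that spaces collagen fibrils, was at 5.09 and 10.60, at least 17.7-fold higher, and dermatopontin (Dpt), another matrix protein, at 6.25 and 11.06, at least 24.4-fold higher. For these 3 genes WT MEF was under background and the pluripotent arrays lay at or near it, so KO MEF was the 1 array of the series with a clear signal. Where the fold of a gene is printed, "at least" marks a dim array below its background, and the fold is then taken against that background. Some pairs of levels are printed without a fold, also where 1 of them lay under background.

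Decorin (Dcn), the best-known proteoglycan of that family, was expressed on both sides, at 7.99 in WT and 12.19 in KO MEF (18.4-fold). Elastin (Eln), the core of elastic fibres, was at 7.79 and 10.79, and Pdgfra, the platelet-derived growth factor receptor of mesenchymal progenitors, at 8.0 and 11.11. Prelp, a proteoglycan that anchors basement membranes, was at 7.90 and 12.06 on its brighter probe set but at 7.23 and 7.22 on the other. Prelp is therefore uncertain. Serping1, the inhibitor of the complement protease C1, was at 6.33 and 10.58, at least 17.5-fold higher.

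Of 38 measured genes of the fibroblast and collagen matrix list, 13 were at least 2-fold higher in KO MEF, 0 were lower and 25 were neither. The list's median difference was 0.46, beside -0.02 over all autosomal genes, and its summed intensity was 124120 in WT and 174131 in KO MEF. The 2 WT iPSC arrays, which are replicates, differed by a median of 1.3 over the same list, and the KO iPSC arrays by 0.02. Within the list the differences were uneven. Type III collagen (Col3a1, 10.09 and 11.77), the type VI chain Col6a2 (9.80 and 11.29), asporin (Aspn, 10.39 and 12.25) and fibromodulin (Fmod, 10.11 and 11.66) were over 2-fold higher. Pcolce2, which helps to trim procollagen and is not in the list, was lower in KO MEF (10.61 and 8.15). Type I collagen was less than 2-fold apart (Col1a2, 12.18 and 12.48), as were Sparc (12.30 and 12.44) and lysyl oxidase (Lox, 13.00 and 13.14), which crosslinks collagen.

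**Figure D2:**
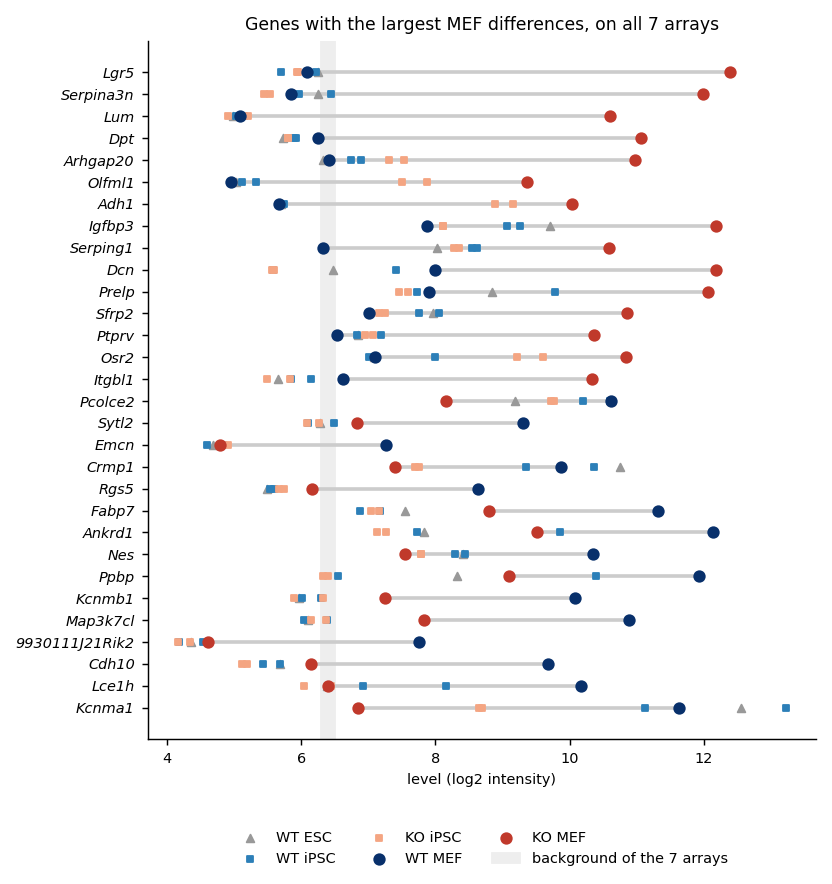
Log2 intensity of the 15 autosomal genes with the largest positive and the 15 with the largest negative MEF difference, on all 7 arrays, with the MEF pair as joined circles and the grey band spanning the background of the 7 arrays. Lgr5 reached 12.38 in KO MEF while the other 6 arrays lay at or under 6.25, and Kcnma1 was at 11.63 in WT MEF and 6.84 in KO MEF.

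Genes that break down or protect the matrix were also unequal. Of 25 measured proteases and inhibitors 9 were higher, 3 lower and 13 neither, with a median of 0.47. The aggrecanase family member Adamts9 was at 7.71 in WT and 10.13 in KO MEF, the collagenase Mmp13 at 5.53 and 7.91 (at least 2.74-fold higher) and cathepsin K (Ctsk), a collagen-degrading cysteine protease, at 7.99 and 9.91. Of the plasminogen activator system Plaur, the urokinase receptor, was lower in KO MEF (9.10) than in WT (11.19), and urokinase itself (Plau) was at 10.57 in WT and 9.35 in KO. The tissue-type activator Plat was at 10.49 and 11.04, less than 2-fold apart.

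The Wnt list, to which Lgr5 belongs, held secreted antagonists and target genes that were higher in KO MEF. Of 29 measured genes 11 were at least 2-fold higher, 1 was lower and 17 were neither, with a median of 0.45. The secreted frizzled-related proteins bind Wnt ligands outside the cell, and among them Sfrp1 was at 9.73 in WT and 11.80 in KO MEF, and the related Frzb at 5.47 and 7.56 (at least 2.15-fold higher). Sfrp2 was at 7.0 and 10.86, but its other, dim probe set gave 5.98 and 6.02. Among genes induced by Wnt signalling, Axin2 was at 6.90 and 7.94 (7.06 and 7.64 on its other probe set), Nkd2 at 8.44 and 10.13, and Ccn5 at 10.15 and 12.29. The ligand Wnt5a differed less (9.45 and 8.99), and Lef1, a transcription factor that acts with beta-catenin, was lower in KO MEF (8.54 and 6.99).

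Growth factors and their binding proteins followed. Of 33 measured genes 13 were higher, 3 were lower and 17 neither, with a median of 0.37. Insulin-like growth factor binding protein 3 (Igfbp3), which holds insulin-like growth factors in the fluid around cells, was at 7.87 in WT and 12.19 in KO MEF, a 19.9-fold difference. Igf1 itself was at 7.85 and 9.78, and Igfbp2, Igfbp4, Igfbp5 and Igfbp6 were higher by 1.18 to 1.84, while Igf2 (11.33 and 11.74) and Igfbp7 (13.09 and 12.83) were not 2-fold apart. Hgf, the ligand of the receptor Met, was at 6.43 and 8.37 (at least 3.78-fold higher), and Met at 8.82 and 7.81, lower in KO MEF. The other 2 members that were lower were Hbegf, a ligand of the epidermal growth factor receptor (11.78 and 9.94), and Fgf2 (8.63 and 7.63).

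In the hedgehog and Notch list 5 of 20 were higher, 0 lower and 15 neither (median 0.17). Gas1, a co-receptor for hedgehog ligands, was at 7.80 in WT and 10.96 in KO MEF, and the hedgehog effector Gli2 at 8.82 and 10.15. The usual transcriptional readouts of the hedgehog pathway were mixed. Gli1 was under background on both arrays (6.07 and 6.0) and Ptch1 was at 8.60 and 7.84. Hhip was higher in KO MEF, at 5.26 and 6.96 (at least 1.42-fold). Of 24 targets and members of TGF-beta and BMP signalling 3 were higher, 1 was lower and 20 neither (median 0.08). Bmp4 was at 10.03 and 11.31, Id4 at 7.35 and 8.82, and Ltbp1, which holds latent TGF-beta in the matrix, at 11.46 and 10.23.

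The genes that were highest in WT MEF included those of contractile cells. Kcnma1, the pore-forming subunit of the large-conductance calcium-activated potassium channel, was at 11.63 in WT and 6.84 in KO MEF, the largest negative difference. Its other probe set lay at or near background (5.86 and 6.37) and had the opposite sign. Kcnmb1, the smooth muscle beta subunit of the same channel, was at 10.09 and 7.24. It was under background in the 5 pluripotent arrays, between 5.89 and 6.32, so WT MEF was the brightest array for it.

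Of 20 measured smooth muscle genes 5 were at least 2-fold lower, 3 were higher and 12 neither, with a median of -0.59. Rgs5, a marker of pericytes, was at 8.64 in WT and 6.15 in KO MEF (at least 4.88-fold lower), and Myocd, the coactivator that drives the smooth muscle programme, at 9.11 and 7.32. Actg2 (12.41 and 10.76) and calponin (Cnn1, 12.44 and 10.86) were lower, but Acta2, the actin of myofibroblasts, was almost level (13.52 and 13.47). The 3 higher members were Notch3, the integrin subunit Itga8 and the amine oxidase Aoc3, by 1.5 to 1.72. Ankrd1, a stretch-responsive muscle gene, was at 12.14 and 9.52. Acta1 (11.05 and 9.41) and Mef2c (7.55 and 8.91) were the 2 skeletal and cardiac muscle genes of 29 that passed 2-fold, in opposite directions (list median -0.06). The other probe set of Mef2c gave 6.14 and 6.74, and the mean of both (0.98) was under 2-fold.

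Other genes high in WT MEF belong to diverse cell types. Nestin (Nes), an intermediate filament of progenitors, was at 10.34 in WT and 7.54 in KO MEF, and Fabp7, a fatty acid binding protein of glia, at 11.32 and 8.79. With Tubb3 (9.27 and 8.21) these were the 3 of 18 neural and glial genes that were lower, while 0 were higher and 15 neither (median 0.07). The cadherin Cdh10 was at 9.68 and 6.14, at least 10.1-fold lower, and 9930111J21Rik2 at 7.76 and 4.61, at least 2.65-fold lower. Ppbp, a platelet chemokine, was at 11.93 and 9.09, and in iPSC it was at 10.39 in WT replicate 1 but 6.55 in WT replicate 2. WT iPSC replicate 1 was the one with more signal from the fibroblast list.

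Every measured member of the cell cycle lists described next had a negative difference in KO MEF, beside 11298 of all 21065 autosomal genes. Of 23 genes that act in G2 and mitosis, 16 were at least 2-fold lower, 0 were higher and 7 neither, with a median of -1.09. The replicate iPSC arrays differed over this list by medians of -0.10 (WT) and -0.03 (KO). Aurora kinase A (Aurka) was at 10.29 in WT and 8.38 in KO MEF, the spindle checkpoint kinase Bub1 at 10.07 and 8.42, the kinetochore motor Cenpe at 9.81 and 8.20, and the mitotic kinase Cdk1 at 11.31 and 10.17. Mki67, the usual proliferation marker, was at 10.76 and 9.92, a smaller gap.

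Of 25 genes of the G1/S transition and DNA replication 9 were at least 2-fold lower, 0 were higher and 16 neither, with a median of -0.86. The replication licensing factor Cdc6 was at 8.50 in WT and 6.96 in KO MEF, the ribonucleotide reductase subunit Rrm2 at 10.60 and 9.18, and the helicase subunit Mcm6 at 9.81 and 8.46. Pcna, the sliding clamp, was at 11.37 and 10.94. In the p53 and senescence list 3 of 20 were higher and 0 lower (median 0.26): the death receptor Fas (6.84 and 8.77), Trp53inp1 (9.82 and 11.23) and Perp (7.20 and 8.71). The cell cycle inhibitor Cdkn1a was almost level (12.85 and 12.92), Cdkn2a was at 8.71 and 9.54, and Il6, a secreted senescence factor, was under background on both arrays (5.69 and 6.12).

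The mitotic genes share promoter elements, which are shown because this list had the lowest median of all. Late cell cycle genes are known to be controlled through the cell cycle genes homology region, or CHR (letters TTTGAA), and through CCAAT boxes (CCAAT). Both strands were searched from 250 bases before to 50 after the start of transcription in RefSeq promoters of assembly GRCm38.p6, which matched 16221 of the autosomal genes. The CHR letters were in 14 of the 18 G2 and mitosis promoters that matched (77.8%) and in 15.7% of all promoters. CCAAT was in 16 of 18 (88.9%) and in 38.1% of all. The CHR was in 4 of 5 members under 2-fold and 10 of 13 past it, and in 3 of 22 promoters of the G1/S list. These are stretches upstream of 3 starts, with both motifs in capitals, read in the direction of the gene; a motif on the opposite strand appears as TTCAAA or ATTGG.

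Kif11, chr19:37376313-37376381, plus strand: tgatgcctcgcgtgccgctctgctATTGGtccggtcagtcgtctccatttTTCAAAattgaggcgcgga
Cdc20, chr4:118437344-118437411, minus strand: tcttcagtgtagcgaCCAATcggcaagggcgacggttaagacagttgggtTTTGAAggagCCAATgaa
Cdk1, chr10:69352913-69352977, minus strand: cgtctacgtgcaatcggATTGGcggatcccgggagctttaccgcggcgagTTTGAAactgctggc

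Kif11, the motor that separates the spindle poles, was at 10.29 in WT and 9.03 in KO MEF, and Cdc20, an activator of the anaphase-promoting complex, at 10.94 and 9.69. In each stretch a CCAAT box lies upstream of the CHR without overlapping it, and in Cdc20 another follows. A match describes these letters and was not tested for factor binding.

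Interferon-stimulated genes past 2-fold were higher in KO MEF, with 1 exception. Of 29 measured genes 8 were at least 2-fold higher, 1 was lower and 20 neither, with a median of 0.41. Xaf1, a pro-apoptotic interferon target, was at 7.38 in WT and 9.86 in KO MEF, Stat2, a transcription factor of the interferon response, at 8.10 and 9.66, its partner Irf9 at 8.31 and 9.46, and Oasl2 at 5.80 and 7.35 (at least 1.86-fold higher). Classic strongly induced members were dim on both arrays: Isg15 was at 5.39 and 5.66, and Mx1 at 4.79 and 5.08, both under background. Ifit1 (7.31 and 8.16) and Oas3 (7.11 and 7.06) were expressed but less than 2-fold apart.

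The exception was Irgm1, at 8.53 in WT and 6.47 in KO MEF, while its paralogue Irgm2, another immunity-related GTPase of chromosome 11, was at 5.90 and 7.74 (at least 2.43-fold higher). Probe sets of such related genes can share sequence, and the values of Irgm1 and Irgm2 are uncertain to that extent. Their promoters are shown with that of Stat2 because the 3 genes differ in direction or level yet hold the same element, the interferon-stimulated response element searched as GAAANNGAAA on both strands. It was in 13 of 21 interferon-list promoters (61.9%) and in 3.40% of all promoters, in 4 of 7 members past 2-fold and 9 of 14 under it. Capitals mark the element; in Irgm1 a pair of matches overlap, and in Stat2 it lies on the opposite strand as TTTCAGTTTC.

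Irgm1, chr11:48871421-48871494, minus strand: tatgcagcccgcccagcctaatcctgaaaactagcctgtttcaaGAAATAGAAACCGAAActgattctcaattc
Irgm2, chr11:58214863-58214972, plus strand: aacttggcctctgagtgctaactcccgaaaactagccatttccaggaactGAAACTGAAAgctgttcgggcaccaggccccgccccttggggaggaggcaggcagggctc
Stat2, chr10:128270248-128270335, plus strand: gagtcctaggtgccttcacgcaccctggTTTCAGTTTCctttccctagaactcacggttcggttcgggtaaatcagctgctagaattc

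Of 20 histocompatibility genes 3 were higher and 0 lower (median 0.12). H2-K1, a classical class I molecule, was at 8.75 in WT and 10.21 in KO MEF, and Tap1, which carries peptides to class I molecules, at 7.90 and 9.32. Tapbp was at 9.51 and 10.80, but at 8.05 and 8.13 on its other probe set. Class I genes are close paralogues, so H2-K1 may include signal from others.

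In the list of chemokines and inflammation 7 of 28 were higher, 2 lower and 19 neither (median 0.47). Cxcl5, a neutrophil chemokine, was at 7.99 in WT and 10.33 in KO MEF, the adhesion molecule Icam1 at 6.98 and 9.30, and the eosinophil chemokine Ccl11 at 6.20 and 7.78 (at least 2.51-fold higher). Ptgs2, the inducible cyclooxygenase, lay the other way at 12.81 and 11.75. Of 19 macrophage markers 3 were at least 2-fold lower in KO MEF, 0 higher and 16 neither. Their differences were below 0 in 18 of 19, beside 11298 of all 21065 autosomal genes, with a median of -0.66 and a summed intensity of 5677 in WT and 3140 in KO MEF. Lysozyme (Lyz2) was at 10.42 and 8.31, and Tyrobp, a myeloid signalling adaptor, at 8.54 and 7.42. Of the defining markers, Csf1r was at 7.95 and 7.03 and Ptprc, which all white blood cells carry, was under background on both (5.99 and 5.66), and 18 of the 19 were above background in WT and 12 in KO MEF. The part of macrophages in the other differences was not tested.

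**Figure D3:**
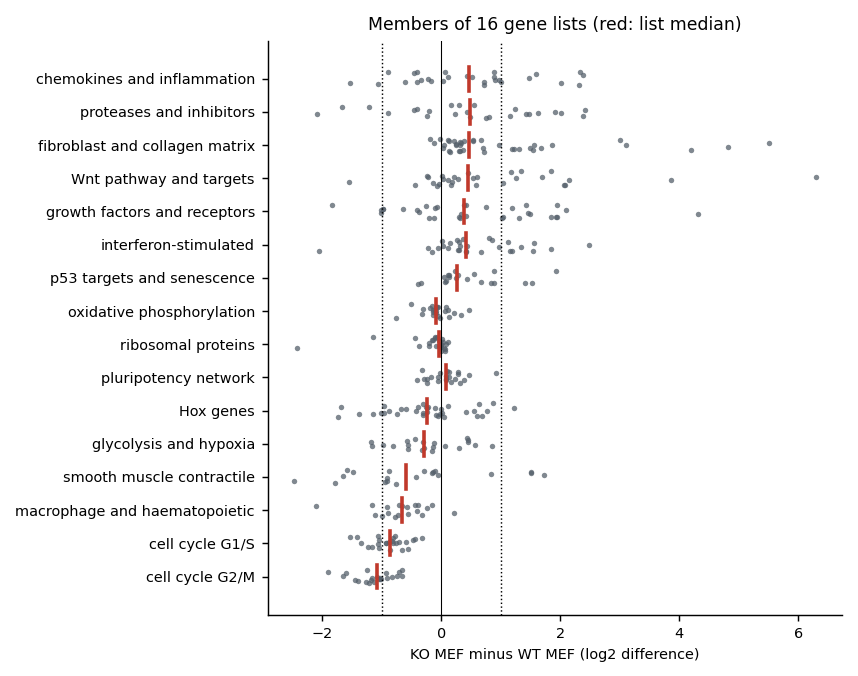
Each grey point is 1 measured gene of 1 of 16 lists, placed by its log2 difference, KO MEF minus WT MEF, with the list's median in red and dotted lines at 2-fold. The G2/M and G1/S lists have medians of -1.09 and -0.86 with every member left of 0, while Lgr5 (6.30) and Lum (5.51) lie far to the right of lists whose medians are 0.45 and 0.46.

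Fibroblasts keep a record of their body position in their Hox genes. Of 36 measured Hox genes 5 were at least 2-fold lower, 1 was higher and 30 neither, with a median of -0.25. Below 0 were 6 of the 9 HoxA genes (median -0.27), 9 of the 10 HoxB genes (-0.55), 8 of the 9 HoxC genes (-0.30) and 2 of the 8 HoxD genes (0.59), beside 11298 of all 21065 autosomal genes. Of the 5 lower genes 3 are HoxA and 2 HoxB genes, and differences between the clusters were not tested. The HoxB counts depend on the probe set used for Hoxb5, which gave 7.71 in WT and 7.82 in KO MEF. Its other probe set, brighter in MEF, gave 9.39 and 8.04, past 2-fold lower. Hoxa5 was at 9.02 in WT and 7.29 in KO MEF, Hoxb6 at 8.94 and 7.25, and Hoxa3 at 8.07 and 6.68. The 5 lower genes, which also include Hoxa6 and Hoxb7, lie in the middle and anterior parts of their clusters. The higher one was Hoxd8 (7.39 and 8.61), while Hoxd13, which marks distal limbs, was at 9.36 and 10.03 and Hoxa13 at 8.11 and 8.53, each less than 2-fold apart.

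Of 42 other patterning factors 3 were higher, 1 lower and 38 neither (median 0.11). The transcription factors Tfap2a (6.68 in WT and 8.76 in KO MEF) and Tfap2b (6.09 and 8.55, at least 4.27-fold higher), which act in neural crest and face, were both higher, as was the limb factor Shox2 (7.90 and 9.66). Foxc2, a factor of paraxial mesoderm and vessels, was at 10.04 and 7.63. Among urogenital and mesothelial markers 5 of 16 were higher, 0 lower and 11 neither (median 0.18): Osr2 (7.09 and 10.84), Upk1b (7.44 and 10.75), Upk3b (7.12 and 9.09), Osr1 (11.32 and 12.77) and Msln (6.93 and 7.95). Upk1b, Upk3b and Msln are surface proteins of urothelium or mesothelium.

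The counts of the remaining cell type lists are to be read beside the 4.64% of all autosomal genes past 2-fold. For cartilage and bone 2 of 25 were higher (Col10a1, 8.48 in WT and 11.18 in KO MEF, and Omd, 4.78 and 7.62, at least 2.24-fold) and 2 lower (Col2a1, 9.10 and 7.83, and Acan, 7.71 and 6.52), with a median of 0.05. For adipocytes 2 of 13 were higher (median 0.29): lipoprotein lipase (Lpl, 7.36 and 9.54) and Dlk1, described below. For endothelium 2 of 16 were higher and 1, Emcn (7.26 and 4.78, at least 1.87-fold), was lower (median -0.04), with Pecam1 (6.87 and 6.68) and Cdh5 (7.03 and 6.84) close to background on both arrays. In the epithelial list 2 of 21 were higher, Cdh3 (10.04 and 11.17) and Perp, and its median of 0.08 changed sign when probe sets were averaged (-0.07). Of the erythroid (7), melanocyte (8) and liver and gut (12) markers 0 were 2-fold apart. Only 1, 4 and 7 of them, in that order, were above background on 1 or both MEF arrays.

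Imprinted genes, which are expressed from the copy of 1 parent and many of which control fetal growth, differed in both directions. Of 29 measured, 5 were at least 2-fold higher, 4 lower and 20 neither, with a median of -0.09. Higher were Dcn, Dlk1, the cell cycle inhibitor Cdkn1c (7.67 in WT and 9.13 in KO MEF), Peg3 (10.45 and 11.79) and Impact (10.95 and 11.99). Lower were Rian, Asb4 (7.09 and 5.55, at least 1.67-fold), the zinc finger gene Plagl1 (8.84 and 7.54) and the growth inhibitor Grb10 (11.87 and 10.68).

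Dlk1 and Rian come from the same imprinted region of chromosome 12, between Dlk1 and Dio3, where the paternal copy makes the Notch-like protein Dlk1 and the maternal copy makes a long train of noncoding RNAs, among them Meg3, Rian and a large microRNA cluster. The region was examined after these values had been seen. Of its 54 measured genes 49 were below 0 (beside 11298 of all 21065 autosomal genes), 18 were at least 2-fold lower, 1 was higher and 35 neither, with a median of -0.58. Only 34 of the 54 were above background on 1 or both MEF arrays. Of these 34, 31 were below 0 and 16 were at least 2-fold lower. Dlk1, the higher one, was at 8.84 in WT and 10.89 in KO MEF, and Rian at 10.60 and 9.22. Meg3 was at 7.23 and 6.79.

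Of the 43 microRNA genes in the region 41 were below 0 and 12 were at least 2-fold lower, with a median of -0.58. Only 25 of the 43 were above background on 1 or both MEF arrays. Of these 25, 24 were below 0 and 10 were at least 2-fold lower. Of the 379 autosomal microRNA genes elsewhere 6 were at least 2-fold higher and 2 lower, with a median of -0.00. In iPSC the region differed the other way: over its 34 genes above background in MEF, KO iPSC exceeded WT iPSC by a median of 1.36, but the 2 WT iPSC arrays themselves differed there by a median of 0.76. These probe sets read RNA of the hairpin locus and not the mature microRNA.

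**Figure D4:**
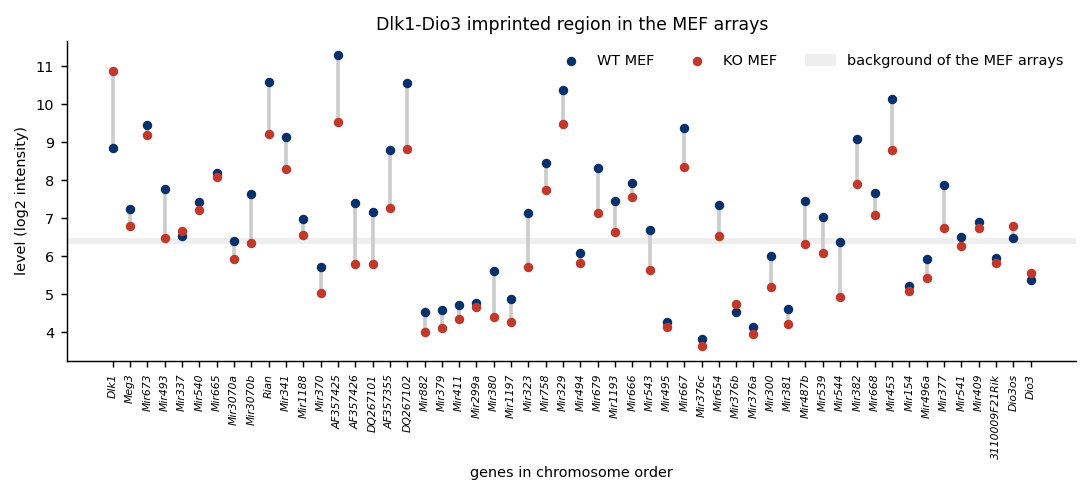
Log2 intensity in WT and KO MEF of the genes between Dlk1 and Dio3 in chromosome order, each pair joined by a grey line, with the background of the MEF arrays in grey. Dlk1 at the left end is 2.04 higher in KO MEF, 49 of 54 genes lie below 0, and 18 are at least 2-fold lower.

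Across the autosomes, 17 microRNA genes above background on 1 or both MEF arrays were 2-fold apart, and 15 matched RefSeq mature sequences of assembly GRCm38.p6. Of the 17, 10 were among the 25 microRNA genes above background in the chromosome 12 region. The others were among 123 above background elsewhere, to be read beside 4.64% of all autosomal genes. The largest difference was Mir199a-1, at 5.59 in WT and 8.44 in KO MEF (at least 3.97-fold higher), whose microRNA is abundant in mesenchymal cells. Mir218-1 was at 7.48 and 9.01, and Mir125b-1 at 6.0 and 7.51 (at least 2.08-fold higher). Mir218-2 was at 5.31 and 6.44, under background in WT MEF (6.45) and barely above it in KO MEF (6.35). From the chromosome 12 region Mir382 was at 9.10 and 7.91, Mir667 at 9.37 and 8.34, Mir377 at 7.88 and 6.74 and Mir493 at 7.77 and 6.48. The mature sequences of these 8 genes are shown, 1 per gene save for both arms of miR-199a, with the seed, bases 2 to 8, in capitals, since the seed decides which messages a microRNA pairs with.

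mmu-miR-199a-5p, chr9:21496537-21496559, minus strand: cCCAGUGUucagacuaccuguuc
mmu-miR-199a-3p, chr9:21496498-21496519, minus strand: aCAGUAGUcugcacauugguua
mmu-miR-218-5p, chr5:48223966-48223986, plus strand: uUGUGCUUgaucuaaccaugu
mmu-miR-125b-5p, chr9:41581940-41581961, plus strand: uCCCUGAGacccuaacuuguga
mmu-miR-382-5p, chr12:109733781-109733802, plus strand: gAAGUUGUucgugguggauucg
mmu-miR-667-3p, chr12:109720061-109720083, plus strand: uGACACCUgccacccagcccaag
mmu-miR-377-3p, chr12:109740553-109740574, plus strand: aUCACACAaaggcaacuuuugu
mmu-miR-493-5p, chr12:109580243-109580261, plus strand: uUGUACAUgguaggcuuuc

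No seed recurs among the lines above. The 15 genes gave 26 seeds, and the 1 seed that came from more than 1 gene was that of miR-218-5p, which Mir218-1 (the locus printed) and Mir218-2 both encode. Both read higher in KO MEF, but Mir218-2 lay under background in WT MEF and barely above it in KO MEF, so its difference is uncertain.

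The genotype difference was also read in iPSC, as the mean of 2 KO against the mean of 2 WT arrays, none of which belongs to the MEF pair. In iPSC 417 genes (1.98%) were at least 2-fold higher in KO and 673 (3.19%) lower. Of the 598 genes higher in KO MEF, 45 (7.53%) were among the 417, which is 10.8% of them, and 40 (6.69%) were among the 673 that were lower, 5.94% of them. Of the 380 genes lower in KO MEF, 39 (10.3%) were also lower in KO iPSC, 5.79% of the 673, and 30 (7.89%) were higher there, 7.19% of the 417. Genes past 2-fold in MEF were thus past 2-fold in iPSC in both the same and the opposite direction, and the overlaps were not tested.

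Among the 45 genes higher in both, the alcohol dehydrogenase Adh1 was at 5.67 in WT and 10.03 in KO MEF, at 5.68 and 5.74 in WT iPSC and at 9.15 and 8.89 in KO iPSC. KO arrays of both cell types were bright and WT arrays were under background, although Adh1's other probe set was dim in both MEF (4.86 and 4.99). Olfml1, a secreted olfactomedin-domain protein, was at 4.95 and 9.36 in MEF (at least 7.51-fold higher), 5.32 and 5.11 in the WT iPSC arrays, and 7.88 and 7.50 in KO iPSC. Tfap2a was at 6.23 and 5.98 in the WT iPSC arrays, and 9.92 and 9.88 in KO iPSC, and Osr2 at 8.0 and 7.01 against 9.60 and 9.22. Cd55, a brake on complement, was higher by 2.17 in MEF and 2.20 in iPSC, and Uap1l1 by 2.11 and 2.55. In these 6 genes every KO array of a cell type stood above every WT array of that type. They were chosen as higher in both cell types, so in MEF this order is the choice itself. In iPSC it follows largely from that choice.

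Among the 39 lower in both, Kcnma1 was at 13.23 and 11.12 in WT iPSC and at 8.65 and 8.70 in KO iPSC. Crmp1, a cytosolic protein of growing axons, was at 9.87 in WT and 7.39 in KO MEF, at 9.35 and 10.37 in WT iPSC and at 7.75 and 7.70 in KO iPSC. Rps13, a ribosomal protein gene, was at 9.96 and 7.52 in MEF, 9.84 and 10.96 in the WT iPSC arrays, and 6.67 and 5.67 in KO iPSC. Ribosomal protein genes have many pseudogene copies, so its probe set is uncertain, and of the other 25 measured ribosomal protein genes 1, Rpl5 (7.29 and 6.13), was 2-fold apart in MEF (list median -0.04). Rpl5 was under background in KO MEF, so its fold is only at least 1.91.

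**Figure D5:**
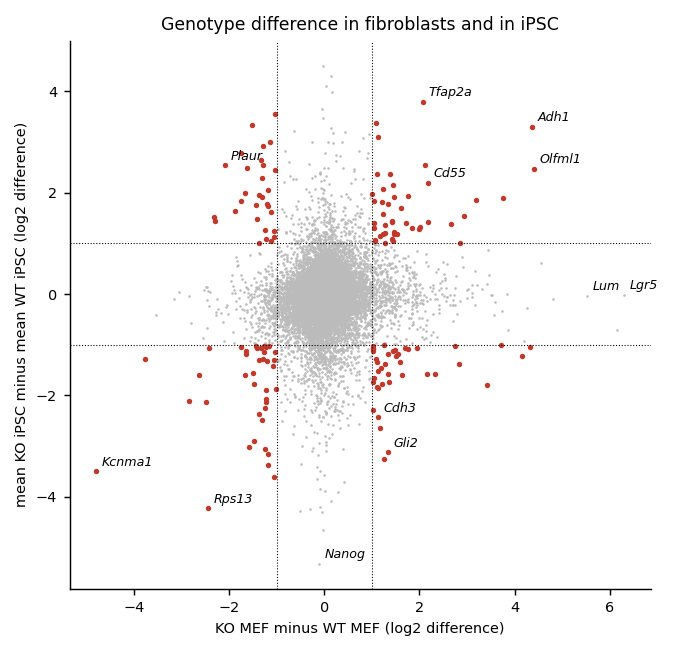
Each point is 1 autosomal gene, with the MEF difference, KO minus WT, on the horizontal axis and the iPSC difference, mean KO minus mean WT, on the vertical axis (both log2), dotted lines at 2-fold and red for genes past 2-fold in both. Adh1 (4.36 and 3.31) and Kcnma1 (-4.79 and -3.50) lie near the diagonal, Lgr5 (6.30 and -0.01) on the horizontal axis, and Nanog (-0.11 and -5.32) on the vertical one.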

How the data were processed

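RNA of 7 mouse cell samples was hybridised to 1 Affymetrix whole-transcript array each. The authors deposited 1 linear intensity per probe set and array, from 9.67 to 13043 over 33649 probe sets. Per the submitters' processing notes, these come from RMA and Affymetrix Expression Console 1.3.0.187. The genome build is not given in the sources used here. The log2 was taken here, and nothing else was normalized. Arrays have no read depth, and their number limits the precision. The median log2 level of the arrays lay between 7.05 and 7.13, and 61.0% of the 22180 genes on all chromosomes in WT MEF and 62.5% in KO MEF were above background.

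The platform annotation gives 1 symbol for 23521 probe sets, several for 1814 and lists no entry for 8314. Through Entrez identifiers 23328 of those with 1 symbol matched a RefSeq gene of GRCm38.p6. For 1029 autosomal genes with several probe sets, the brightest of them on average was used.

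Named genes are the 15 largest differences each way among genes above background on 1 or both MEF arrays (gene models, receptors and small RNAs left out), Nanog, the 3 largest of each of 36 lists and the 10 largest shared with iPSC. Of these 124 genes 11 had several probe sets, which differed in sign in 2, Kcnma1 and Prelp. Genes outside this rule were chosen after their values were seen. The members and lists were chosen with earlier results of these data known. Of the lists' 888 symbols 791 were measured on autosomes, and 97 were not analysed here. Counts were checked on simulated data. Alternatives were array centring, quantile normalization, probe set means, a background filter, all chromosomes, other folds, a pseudocount of 16, and leaving out iPSC arrays. Python 3.11.15, numpy 2.4.6, pandas 2.3.3 and matplotlib 3.10.9 were used.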

Additional observations from a re-analysis of the deposited data

Results flagged for a closer look

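Among the 124 genes chosen by the naming rule, 9 had differences of at least 2-fold in opposite directions in fibroblasts and in iPSC, with every KO iPSC array beyond every WT iPSC array. The difference between the cell types was not tested, since the MEF pair has no replicate. The values are log2 differences, KO minus WT, with the MEF pair before the iPSC means. Genes higher in KO MEF and lower in KO iPSC were Igfbp3 (4.31 and -1.05), the proteoglycan Prelp (4.16 and -1.23, with probe sets that disagree in MEF), the microfibril gene Mfap5 (1.56 and -1.18), Icam1 (2.32 and -1.59) and the matrix protein Tgfbi (1.34 and -1.59). The cadherin Cdh3 (1.13 and -2.43) and the angiopoietin receptor Tek (1.36 and -1.74) belong to the same group, but Tek was under background in WT MEF (5.32), so that its MEF fold is only at least 1.17. Genes lower in KO MEF and higher in KO iPSC were Cth, an enzyme of cysteine synthesis (-1.20 and 1.78), and the urokinase receptor Plaur (-2.09 and 2.54). Other genes mentioned in the text met the same condition outside that rule, Gli2, Igfbp2 and Osr1 among those higher in KO MEF, and Rian, Plagl1, Fosb, Mir382, Mir667, Mir377 and Mir493 among those lower. For Osr1 (9.56 and 7.51) and Rian (9.65 and 6.92) the 2 WT iPSC arrays lay further apart than the iPSC difference. The same limit holds for Prelp (9.78 and 7.72) and Mfap5 (8.94 and 7.58) among the genes chosen by the rule. In each of these genes WT replicate 1 was the brighter array, so the size of the iPSC difference depends on it. In WT ESC Rian was at 10.25, close to KO iPSC (10.31 and 10.17). Mir382 was at 7.79 and 6.34 in WT iPSC, 8.77 and 8.83 in KO iPSC and 8.73 in WT ESC.

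The Y-linked genes Eif2s3y and Uty, which lie outside the autosomal comparison, gave measured differences of 4.16 and 3.92. Both were under background in WT MEF, so that Eif2s3y was at least 6.76-fold and Uty at least 5.02-fold higher in KO MEF. Xist was at 11.97 in WT and 9.15 in KO MEF, and the labels give no sex for either sample.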

How the results depend on the processing

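No paired analysis was possible because each MEF group has 1 array, the MEF labels carry no replicate number, and no test was made. At a fold of 1.5 the counts were 1430 higher and 1146 lower, and at a fold of 4 they were 119 and 34, where 77.8% of the genes past the threshold were higher against 61.1% at 2-fold. The other settings gave 541 to 620 higher and 325 to 404 lower. No median of a list moved by as much as 0.32, the SD between the WT iPSC arrays, though medians close to 0 changed sign (epithelial 0.08 and -0.07 with probe set means). Averaging probe sets moved 10 of the 124 named genes by more than that, with no change of sign: Lgr5 to 4.92, Kcnma1 to -2.14, Adh1 to 2.24, Prelp to 2.08, Sfrp2 to 1.95, Rgs5 to -1.90, Lpl to 1.60, Cycs to -1.15, Mef2c to 0.98 and Tapbp to 0.68. Leaving out 1 iPSC array at a time gave 43 to 47 genes higher in both cell types, 40 to 44 lower in both, 37 to 47 higher in KO MEF and lower in KO iPSC, and 22 to 32 the other way. Of the 598 higher genes 115, and of the 380 lower genes 52, had their dim array under background, so their folds are limited by signal over background.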

Other observations

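Stress and metabolic lists varied in how many of their genes passed 2-fold. Of 21 glycolysis and hypoxia genes 2 were at least 2-fold lower in KO MEF, 0 were higher and 19 neither, with a median of -0.30. The prolyl hydroxylase Egln3 was at 9.01 in WT and 7.82 in KO MEF and hexokinase 2 (Hk2) at 9.14 and 7.96, while Vegfa was at 11.29 and 10.31, just under 2-fold. Of 24 genes of the amino acid stress response 3 were higher, 1 lower and 20 neither (median -0.09). Ddit3, the stress factor also called CHOP, was at 8.88 and 10.29 and Trib3 at 7.61 and 8.76, while the amino acid synthesis genes Asns (11.50 and 11.36) and Phgdh (9.93 and 9.48) were less than 2-fold apart. Of 18 genes of the NRF2 and metal response 4 were higher, 1 lower and 13 neither (median 0.27). The glutathione transferase Gsta4 was at 7.74 and 9.70, metallothionein Mt1 at 9.34 and 10.43, and the retinaldehyde dehydrogenase Aldh1a3 at 8.93 and 7.02, whereas its relative Aldh1a1 was at 6.90 and 8.25.

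Of 19 cholesterol and fatty acid synthesis genes and 24 oxidative phosphorylation genes 0 were 2-fold apart in either direction (medians 0.01 and -0.09). The second count depends on the probe set used for cytochrome c (Cycs): 3 of its 5 probe sets were past 2-fold lower (-1.21, -1.58 and -1.58), and the mean over the 5 was -1.15. Of 21 immediate early genes 3 were higher, 1 lower and 17 neither (median 0.13). The orphan receptor Nr4a1 was at 10.30 and 11.87, Nr4a3 at 6.84 and 8.08 and Egr1 at 9.77 and 10.86, while Fosb was at 9.01 and 7.99 and Myc at 11.40 and 10.58.

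On the X chromosome 19 of 899 measured genes were at least 2-fold higher and 12 lower, with a median of -0.01, beside 2.84% and 1.8% of the autosomal genes. Egfl6, a matrix protein, was at 6.86 in WT and 12.08 in KO MEF, and the angiotensin receptor Agtr2 at 5.19 and 10.39, at least 15.3-fold higher, which sets both beside the largest autosomal differences.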
